A study of Oryza sativa with 4 samples.

Results

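Shoots of the rice cultivar M202 (Oryza sativa, japonica) were compared after 6 days and after 1 day of complete submergence. M202 survives flooding poorly and is the submergence-intolerant line of the study. The comparison takes the array labelled M202 6d and the array labelled M202 1d, which are 2 of the 4 arrays of the series, and gives for each gene the log2 signal at 6 days minus that at 1 day. The other 2 arrays hold M202(Sub1), a near-isogenic line that carries the introgressed Sub1 locus, at the same times. All plants were soil-grown seedlings submerged in a greenhouse at 18 days of age, and no plants kept in air were analysed here. Of 17905 rice genes with a probe set, 15426 reached the level floor, a log2 signal of 5.51 (the median of all values) on at least 1 of the 4 arrays, and are described here. Each group is 1 array, so no test was possible, no replicate error exists, and log2 differences are given as descriptions of these arrays. A log2 difference of 1 is 2-fold, and genes were counted at that size.

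Under water, gas exchange is slow and light is dim, so shoots run short of oxygen and of sugar. Plant cells without oxygen make ATP by glycolysis and keep it running by fermentation to ethanol, in which pyruvate decarboxylase and alcohol dehydrogenase take part. As reserves run out, leaves break down chlorophyll, proteins and lipids and respire the products. Rice cultivars without the Sub1 tolerance locus answer submergence with elongation growth, which uses up carbohydrate.

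The M202 arrays carried shoot transcripts at both times. Of 8 shoot marker genes, such as those for the small subunit of Rubisco and the chlorophyll a/b-binding proteins, 7 lay above the floor at each time, and their median log2 signal was 13.77 at 1 day and 12.99 at 6 days. Of 5 root markers 2 lay above the floor, the silicon channel gene Lsi1 and the iron transporter gene IRT1, and the summed root marker level was 8.81 at 1 day and 8.89 at 6 days on the log2 scale. None of 3 pollen and flower markers reached the floor. In the control probe sets for RNA quality the 3′ signal lay above the 5′ signal by 2.26 for actin at 1 day and by 2.36 at 6 days, and for GAPDH by 0.68 and 0.79. For cyclophilin it was above by 0.32 and 0.51, and for ubiquitin the 3′ minus 5′ difference was -0.17 and -0.34. The ribosomal RNA probe sets, 5 in all, differed by -1.47 to 1.22. The age of the plants, the hour of harvest and any difference in array handling cannot be told apart from the length of submergence.

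More genes were lower than higher at 6 days, while the largest differences were upward. In all, 1147 genes (7.44%) were at least 2-fold higher at 6 days and 1330 genes (8.62%) at least 2-fold lower. At 4-fold the order turned, with 333 genes (2.16%) higher and 184 (1.19%) lower, and at 16-fold 28 were higher and 6 lower. The middle of the distribution was narrow, with 65.4% of genes within 1.5-fold, a median of -0.02, a 5th percentile of -1.27 and a 95th percentile of 1.28. With each array centred on its median, 1242 genes were higher and 1198 lower, so the balance at 2-fold depends on the scaling. With a higher floor, the 75th percentile of all values, the lower count came to 878 and the higher count to 921. The genes nearest to the 2-fold line differed by 1.0014 and 0.99956 on the upper side and by -1.0004 and -0.99997 on the lower side. Some counted genes were near background on 1 array, since 150 of the higher genes lay under the floor at 1 day and 220 of the lower genes at 6 days. Where several probe sets of a 2-fold gene lay above the floor, which was so for 277 genes, all of them had the same sign in 94.2% of cases. In bulk shoots, fewer cells of a type and less RNA per cell cannot be told apart.

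**Figure D1:**
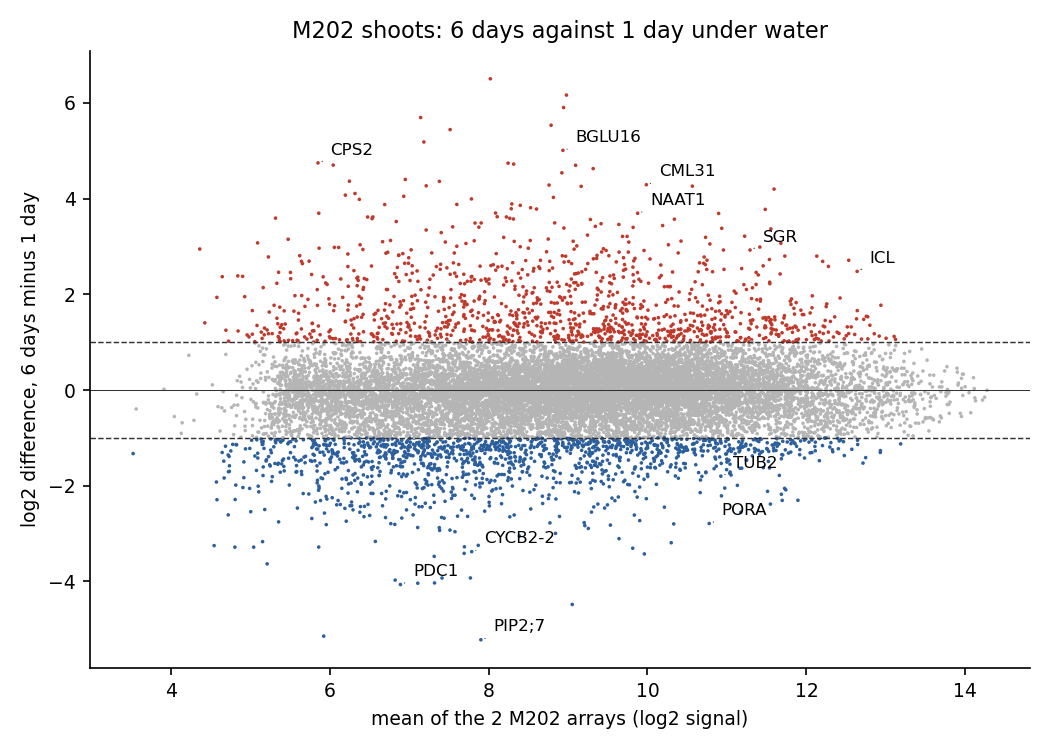
Log2 difference (6 days minus 1 day, M202) against the mean log2 signal of both M202 arrays, 1 point per gene above the floor. Red points are the 1147 genes at least 2-fold higher at 6 days, blue points the 1330 at least 2-fold lower, and dashed lines mark 2-fold.

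Among genes with an informative name, the largest negative difference belonged to a water channel. PIP2;7, a plasma membrane aquaporin gene, stood at a log2 signal of 10.51 at 1 day and 5.29 at 6 days, a difference of -5.22. The 6-day value lay under the floor, and set to the floor it gave a level at least 32-fold lower at 6 days. A close relative, PIP2;5, went from 9.05 to 5.58. The other named genes with large negative differences came from fermentation, cell division, pigment synthesis and nitrogen assimilation and are described with their groups. Among those outside these groups, the apyrase gene APY3, whose product splits nucleoside tri- and diphosphates, was at 9.22 and 6.80. The COBRA-like wall protein gene BC1L2 was at 6.99 and 4.65, the latter under the floor.

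Among genes with an informative name the largest positive difference belonged to a beta-glucosidase, and several genes without such a name differed by more. BGLU16, a member of the beta-glucosidase family that frees hormones and defence compounds from their sugars, stood at 6.43 at 1 day and 11.44 at 6 days, a difference of 5.01 or 32.2-fold, and both of its probe sets differed by over 5. CYP701A8, a P450 of diterpenoid metabolism, went from 4.27, under the floor, to 8.37. The ABC transporter gene ABCG48 went from 6.62 to 10.43. CYP701A8 was at least 7.25-fold higher with its 1-day value set to the floor, and ABCG48 was 14-fold higher. NAAT1, the nicotianamine aminotransferase of phytosiderophore synthesis, stood at 8.03 and 11.72, and CASPL1D1, a Casparian strip membrane protein-like gene, at 7.09 and 10.58. The bZIP factor gene BZIP52 was at 9.24 and 12.62. LAC24, a laccase gene, stood at 6.77 and 9.88, and ERG1 at 6.26 and 9.38.

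**Figure D2:**
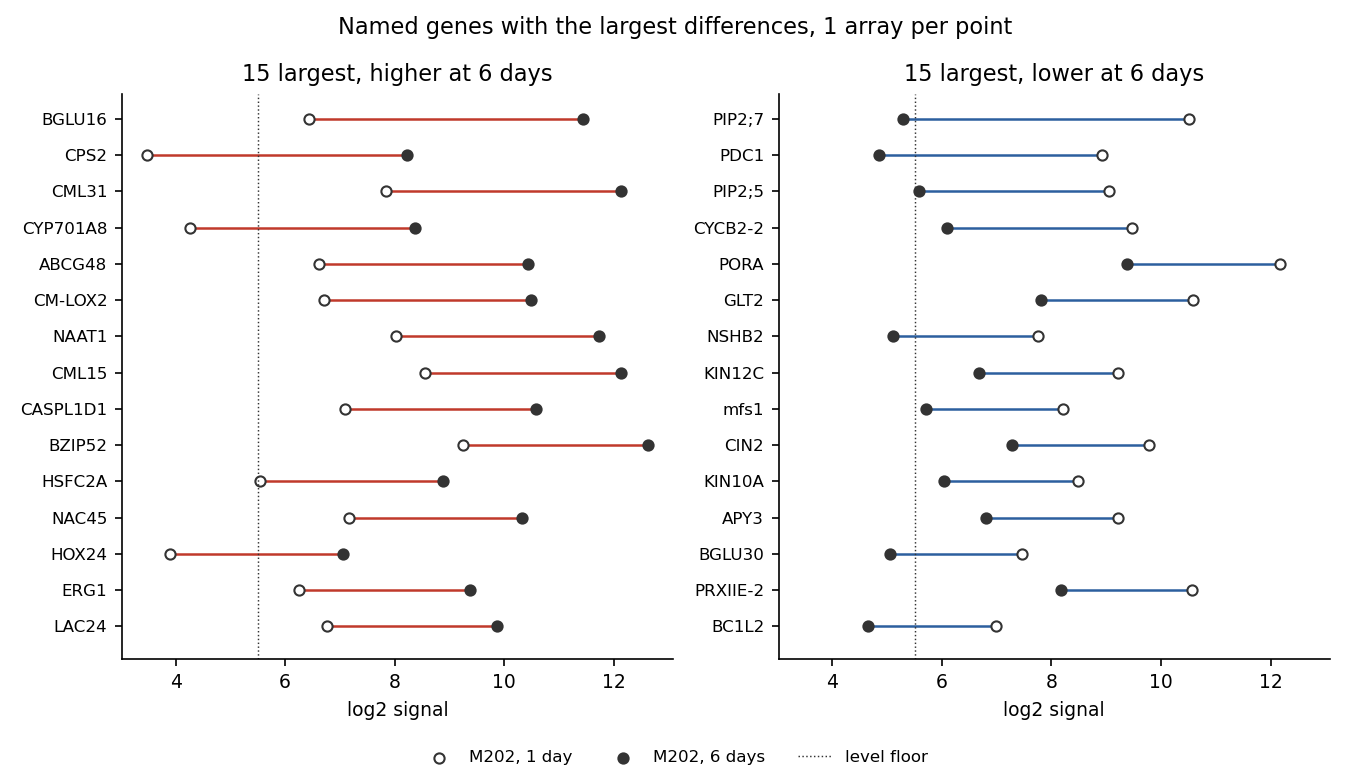
Log2 signal at 1 day (open circles) and 6 days (filled circles) of the 15 named genes with the largest positive (left) and the 15 with the largest negative (right) difference in M202, 1 array per point. The dotted line is the level floor of 5.51, under which CPS2, CYP701A8 and HOX24 lay at 1 day and PIP2;7, PDC1, NSHB2, BGLU30 and BC1L2 at 6 days.

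Genes of ethanol fermentation were lower at 6 days. The 4 genes of the list above the floor were all below 0, their median difference was -1.93 against -0.02 for all genes, and 3 were at least 2-fold lower. PDC1, a pyruvate decarboxylase gene, stood at 8.92 at 1 day and at 4.86 at 6 days, so that it was at least 10.6-fold lower with the 6-day value set to the floor. The alcohol dehydrogenase gene Adh2 went from 8.12 to 6.08 and PDC2 from 11.59 to 9.78. Both nonsymbiotic hemoglobin genes, whose products scavenge nitric oxide when oxygen is low, were lower too. NSHB2 was at 7.75 and 5.11, the latter under the floor. NSHB1 was at 6.72 and, under the floor, 5.39, while its other 2 probe sets stayed above the floor and differed by -0.49 and -0.73.

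Glycolysis genes were lower by smaller amounts, with 1 member far above the rest. Of 18 measured members 16 lay below 0, the median difference was -0.44, and 4 (22.2%, against 8.62% of all genes) were at least 2-fold lower. The cytosolic glyceraldehyde-3-phosphate dehydrogenase gene GAPC3 stood at 12.90 and 11.43, and GAPC2 at 6.74 and 5.63. The hexokinase gene HXK2 (LOC4339420) went from 7.67 to 6.58. HXK7, another hexokinase gene, lay on the other side at 8.20 at 1 day and 11.08 at 6 days, or 7.37-fold higher, and it was the only 2-fold higher member of the list.

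Sucrose-cleaving enzymes split by gene. CIN2, a cell wall invertase gene, stood at 9.77 and 7.29, and the sucrose synthase genes SUS1 and SUS6 differed by -1.24 and -1.10. The neutral invertase gene NIN1 was higher at 6 days, at 9.12 and 10.48. The 15 sucrose genes had a median difference of 0.06, close to that of all genes. Among 14 starch genes 1 was at least 2-fold higher, the alpha-amylase gene AMY3D of starch breakdown, at 5.21, under the floor, and 7.50, whose second probe set lay under the floor on both arrays and differed by -0.17. The 5 measured trehalose phosphatase genes included none that was 2-fold apart, and TPP7, the one with the largest difference, was at 10.52 and 11.50.

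Genes for the use of lipids and amino acids as fuel were higher at 6 days. Of 20 carbon and nitrogen salvage genes 12 (60%, against 7.44% of all genes) were at least 2-fold higher, 1 was at least 2-fold lower, and the median difference was 1.19. GDH2, a glutamate dehydrogenase gene that returns amino acid carbon to respiration, stood at 9.92 at 1 day and 12.45 at 6 days. ICL, for isocitrate lyase of the glyoxylate cycle, through which lipid carbon is turned into sugar, was at 11.40 and 13.88. D2HGDH, a 2-hydroxyglutarate dehydrogenase gene of lysine breakdown, was at 10.49 and 12.35. A set within the list, chosen after its values were seen, covers breakdown of branched-chain amino acids and lysine and the electron transfer flavoproteins that pass their electrons to the mitochondrial chain, and all 6 of its members were 2-fold higher, with differences from 1.19 to 1.86. PPDK2, a pyruvate orthophosphate dikinase gene, was the 2-fold lower member, at 10.65 and 9.51. The ornithine aminotransferase gene OAT, from another list, was at 9.22 and 10.996.

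Primary nitrogen assimilation showed values in both directions. GLT2, an NADH-dependent glutamate synthase gene that joins ammonium nitrogen to carbon, stood at 10.59 at 1 day and 7.82 at 6 days, or 6.82-fold lower. The nitrate reductase gene NIA1 went from 9.49 to 8.09. Against these, 2 ammonium transporter genes were higher. AMT3-2 was at 7.94 and 10.11 and AMT2-3 at 5.197 and 7.13, with AMT2-3 under the floor at 1 day, while AMT3-3 was lower, at 6.48 and, under the floor, 5.42, or 1.95-fold with the latter set to the floor. Over the 14 nitrogen genes the median was -0.21. Of 7 autophagy genes none was 2-fold apart, and APG5, with the largest difference, was at 7.95 and 8.61.

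Chlorophyll synthesis genes were lower at 6 days in every measured case, and most listed genes for chlorophyll breakdown and NAC transcription factors were higher. All 13 measured synthesis genes lay below 0, with a median of -0.82, and 4 (30.8%, against 8.62% of all genes) were at least 2-fold lower. PORA and PORB encode the light-dependent protochlorophyllide oxidoreductases. PORA stood at 12.17 at 1 day and 9.38 at 6 days and PORB at 12.40 and 10.97. GSA, which makes the precursor 5-aminolevulinate, was at 12.08 and 10.74, and its second probe set, under the floor on both arrays, differed by 0.34. On the breakdown side, SGR, the stay-green gene for the enzyme that takes magnesium out of chlorophyll, was at 9.83 at 1 day and 12.75 at 6 days. The list of breakdown enzymes and NAC factors, regulators of leaf ageing, had 7 of 10 members at least 2-fold higher and a median of 1.42. NAC45 went from 7.17 to 10.33 and NAC071 from 9.08 to 11.55.

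Photosynthesis genes differed less than pigment synthesis genes. Of 21 members 3 (14.3%, against 8.62% of all genes) were at least 2-fold lower and none higher, with a median of -0.24. RCABP69, a light-harvesting protein gene, was at 13.58 and 12.28, the photorespiratory glycine decarboxylase subunit gene GDCSH at 12.45 and 11.15 and a ferredoxin-NADP reductase gene, FNR (LOC4334338), at 9.92 and 8.63. Plastid isoprenoid genes had a median of -0.22. The tocopherol methyltransferase gene G-TMT of vitamin E synthesis was lower, at 10.88 and 9.61, and DXPS (LOC4342614), a gene of the first step of plastid isoprenoid synthesis, was higher, at 5.60 and 8.03. Of 23 chloroplast protease and import genes 1 was 2-fold apart, the Clp protease chaperone gene CLPD1, at 11.51 and 12.96.

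**Figure D3:**
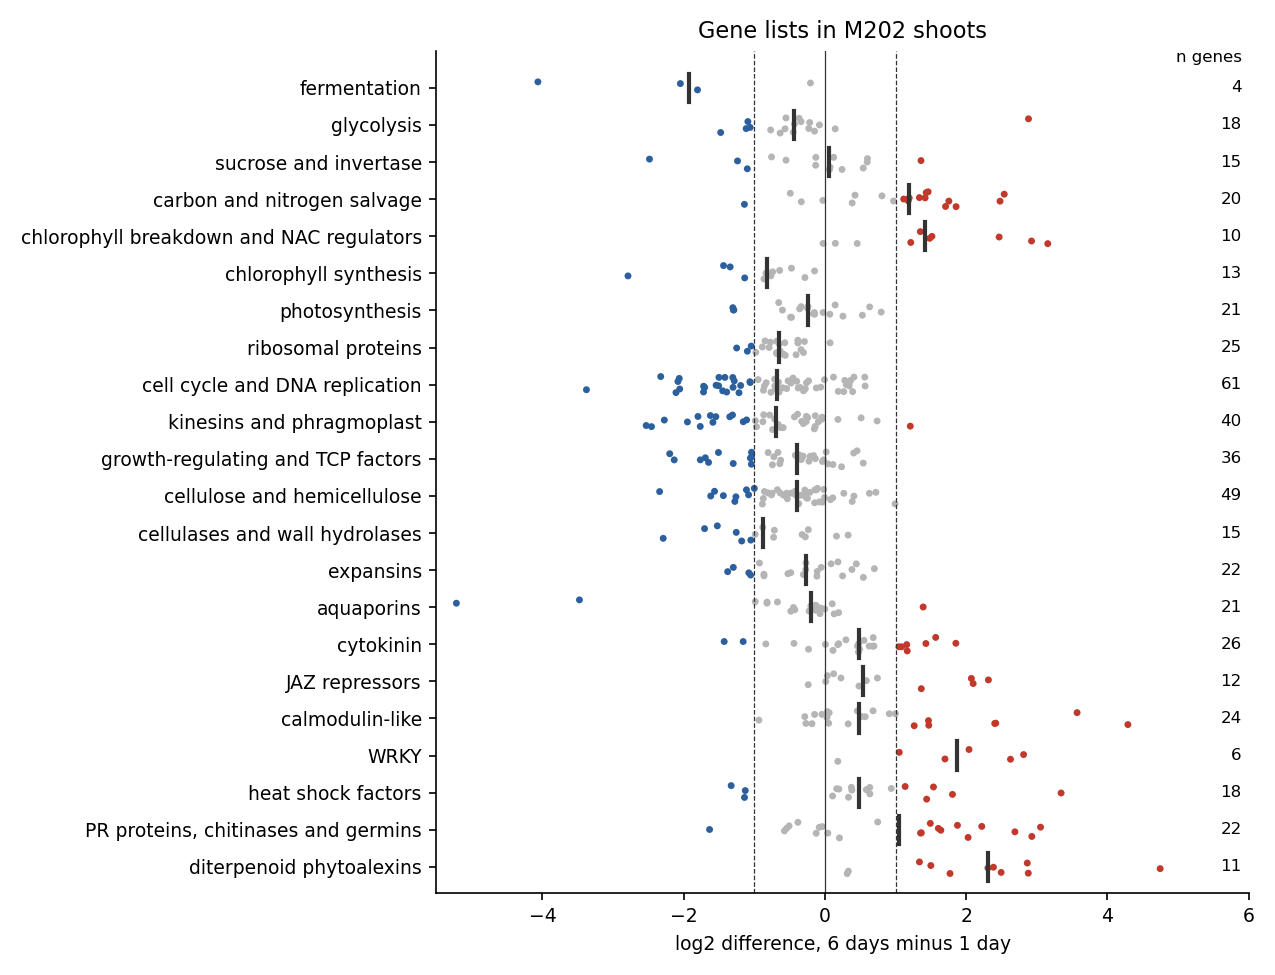
Log2 difference (6 days minus 1 day, M202) of each gene above the floor in 22 gene lists, 1 point per gene, with the list median as a black bar and the number of genes at the right. Red and blue points are at least 2-fold higher and lower. Fermentation, chlorophyll synthesis, cell cycle, kinesin and wall hydrolase genes lie mostly left of 0, and salvage, WRKY and phytoalexin genes mostly right of it.

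Most cell division genes were lower at 6 days. Of 61 cell cycle and replication genes 22 (36.1%, against 8.62% of all genes) were at least 2-fold lower, none was 2-fold higher, 49 lay below 0 and the median was -0.68. With values under the floor set to the floor the median was -0.65. CYCB2-2, a B-type cyclin gene that drives entry into mitosis, stood at 9.48 at 1 day and 6.10 at 6 days, or 10.4-fold lower. CYCB2-1, also a mitotic cyclin gene, was at 8.61 and 6.29, and the A-type cyclin gene CYCA2-1 at 9.09 and 6.99. The subsets that follow were drawn up after the values had been seen. The 6 measured A- and B-type cyclin genes had a median of -2.10, with 5 at least 2-fold lower, and the 9 D-type cyclin genes, which act at the start of the cycle, had a median of -0.87, with 4 at least 2-fold lower and 3 above 0. MCM2 to MCM7 form the helicase that opens DNA at replication origins. All 6 of these genes lay below 0, from -1.70 to -0.86, and 5 were at least 2-fold lower. Replication factor genes A and C were mixed, with 2 of 12 at least 2-fold lower and 4 above 0. The 5 histone H2B genes lay between -0.95 and -0.65. Genes for inhibitors of cyclin-dependent kinases, which hold the cycle back, were not higher by 2-fold in any of 5 cases and had a median of -0.35. Of 10 shoot meristem markers 4 lay above the floor at 1 day and 2 at 6 days, with a summed level of 9.08 and 9.25 on the log2 scale. The largest part of that sum came from WOX13, at 8.01 and 8.52, while OSH1 (LOC4333973) was at 6.11 and, under the floor, 4.10. The other meristem markers lay on both sides of 0. The part of the meristem markers in these differences was not tested.

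The M202(Sub1) arrays gave smaller time differences for these genes, with no test of the difference between the lines. The list median there was -0.10, with 3 genes at least 2-fold lower and 1 higher. CYCB2-2 stood at 9.44 and 7.56 on those arrays, which is close to the M202 value at 1 day and above it at 6 days. MCM2 to MCM7 had a median difference of 0.09 in M202(Sub1) and of -1.29 in M202.

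**Figure D4:**
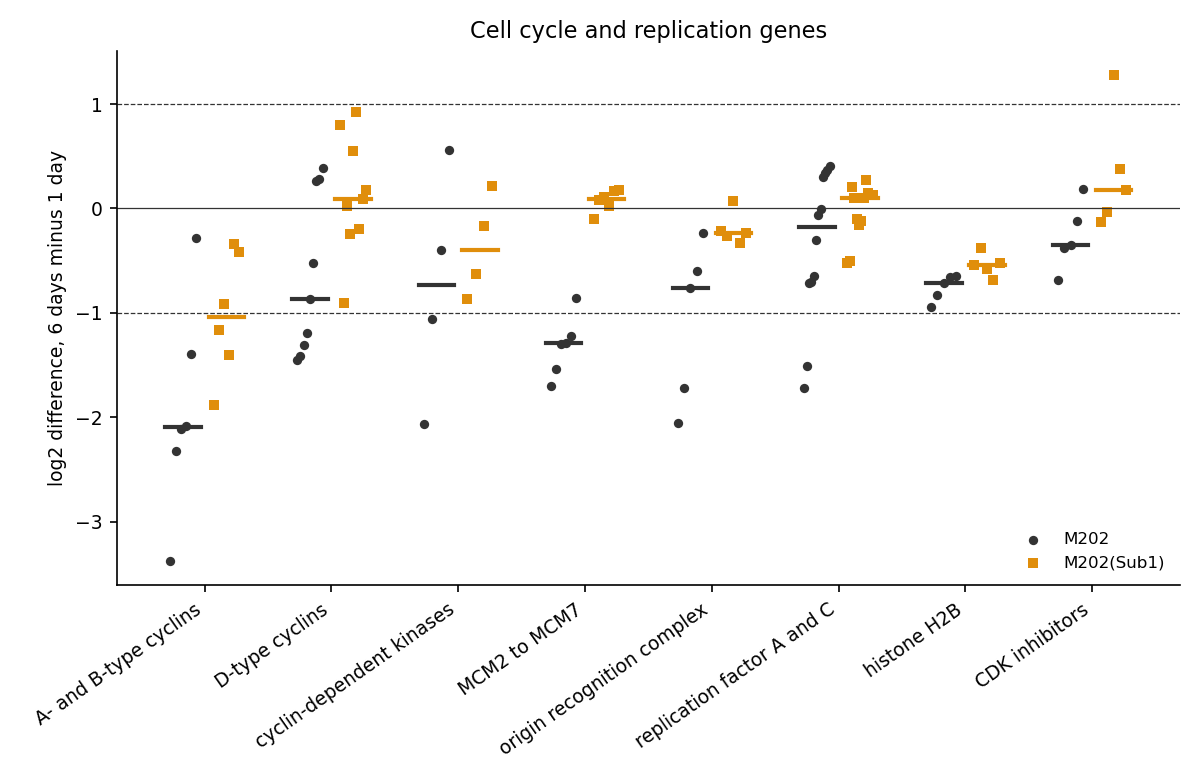
Log2 difference between 6 days and 1 day for cell cycle and replication genes above the floor, by role, in M202 (black circles) and M202(Sub1) (orange squares), 1 point per gene with medians as bars. In M202 the A- and B-type cyclins have a median of -2.10 and MCM2 to MCM7 of -1.29, against -1.04 and 0.09 in M202(Sub1).

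Kinesins are motor proteins that help to build the spindle and the plate that divides plant cells, and most of them were lower. Of 40 genes in the list of kinesins, NEK kinases and microtubule-associated proteins 13 (32.5%, against 8.62% of all genes) were at least 2-fold lower, 1 was 2-fold higher and the median was -0.69. KIN12C stood at 9.22 at 1 day and 6.69 at 6 days, KIN10A at 8.49 and 6.04 and KIN10C at 7.84 and 5.57. KIN14M was the 2-fold higher member, at 8.07 and 9.28. Over the 33 kinesins alone, a subset chosen after its values were seen, the median was -0.71 in M202 and -0.20 in M202(Sub1), where 8 were at least 2-fold lower, among them KIN12C (-1.56) and KIN10A (-1.48). Tubulins, actins and their partners were lower by less, with a median of -0.36 over 34 genes. The beta-tubulin gene TUB2 was at 11.82 and 10.02, the actin gene AC2 at 12.27 and 10.65 and the actin-depolymerising factor gene ADF-7 at 12.08 and 10.78. The DNA methyltransferase genes CMT3 and MET1-2, whose products copy or maintain cytosine methylation, differed by -2.23 and -1.85.

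Wall synthesis and wall-loosening genes were mostly lower. The 49 cellulose and hemicellulose genes had a median of -0.39, with 41 below 0 and 8 (16.3%, against 8.62% of all genes) at least 2-fold lower. CSLA1, a cellulose synthase-like gene, was at 9.96 and 8.34, and CSFL8, of the same list, was at 6.03 and 4.46, the latter under the floor, so that it was no longer 2-fold lower with that value set to the floor. Endoglucanases and other wall hydrolases had a median of -0.88, with 6 of 15 (40%) at least 2-fold lower. PMEI8, a pectin methylesterase inhibitor gene, was at 8.16 and 5.87 and the endoglucanase gene GLU13 at 9.01 and 7.49. Expansins, which loosen walls during elongation, had 4 of 22 members (18.2%) at least 2-fold lower and none higher, with a median of -0.27. EXP6 stood at 9.66 and 8.58, and the expansin-like gene EXLA3 at 7.62 and 6.24. Among 17 phenylpropanoid and lignin genes 5 (29.4%) were 2-fold lower, among them LAC20, another laccase gene, at 8.97 and 7.39, and 1 was higher, LAC24.

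Transcription factors of leaf growth lay on the same side. Of 36 genes for growth-regulating factors, TCP, YABBY and SPL proteins, 11 (30.6%, against 8.62% of all genes) were at least 2-fold lower and none was 2-fold higher, with a median of -0.39 in M202 and 0.06 in M202(Sub1). GRF1, a growth-regulating factor gene, stood at 8.41 at 1 day and 6.21 at 6 days. The TCP gene PCF5 was at 9.59 and 7.45 and SPL18 at 9.05 and 7.28. All 9 measured growth-regulating factor genes, a subset chosen after its values were seen, lay below 0, between -2.20 and -0.02. Ribosomal protein genes were lower by small amounts, with 24 of 25 below 0 and a median of -0.65, while the share at least 2-fold lower, 3 genes or 12%, was near the 8.62% of all genes. RPL7A-2 went from 12.86 to 11.76, RPL11 from 12.95 to 11.91 and rpl5 (LOC4331459) from 12.36 to 11.11. Of 11 translation factor genes 1 was 2-fold lower, EF-Ts, at 9.08 and 7.60.

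Outside the PIP2 genes already given, most aquaporin genes were close to level. Of 21 members 17 lay below 0, with a median of -0.20. Among them 2 (9.52%, against 8.62% of all genes) were at least 2-fold lower, and 1 (4.76%, against 7.44%) was higher. The higher one, the tonoplast channel gene TIP3;1, was at 5.08, under the floor, and 6.47, or 1.95-fold with the 1-day value set to the floor. Of 46 metal transport and chelation genes 8 (17.4%, against 7.44% of all) were at least 2-fold higher, 2 (4.35%, against 8.62%) were lower and the median was 0.37. YSL13, of the family that carries metal complexes, was at 7.93 and 10.57 and the metallothionein gene MT-I-1b at 8.90 and 11.13. VIT1, a vacuolar iron transporter gene, was lower, at 9.78 and 8.62, as was the manganese transporter gene NRAMP5, at 8.40 and 7.34. Among 14 sugar transporter genes 2 (14.3%, against 7.44% of all) were 2-fold higher and none lower. They were the sugar exporter gene SWEET14, at 8.22 and 9.86, and the hexose carrier gene MST3, at 11.59 and 13.12. Of 13 ABC transporter genes 4 (30.8%, against 7.44% of all) were 2-fold higher and none lower. ABCG45, counted among these, was at 4.61, under the floor, and 5.69, or 1.13-fold with the 1-day value set to the floor.

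In the jasmonate, cytokinin and auxin transport and conjugation lists a larger share of genes was 2-fold higher than the 7.44% of all genes. Among jasmonate synthesis genes 5 of 19 (26.3%) were at least 2-fold higher and none lower, though the median was 0.03. The lipoxygenase gene CM-LOX2 stood at 6.71 at 1 day and 10.49 at 6 days. The allene oxide synthase genes AOS2 and AOS3 were at 7.52 and 10.01, and at 4.39 and 7.35, with AOS3 under the floor at 1 day. JAZ genes encode repressors that jasmonate removes and then induces. Of 12 JAZ genes 4 (33.3%) were 2-fold higher and 11 lay above 0, the median was 0.53, and JAZ11 and JAZ12 differed by 2.31 and 2.07. JAZ13 was at 4.79, under the floor, and 6.89 in M202, and at 4.53 and 9.67 in M202(Sub1).

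Of 11 ethylene genes 2 (18.2%, against 7.44% of all genes) were 2-fold higher and none lower, with a median of -0.04. Of 13 gibberellin genes 1 (7.69%) was higher and 1 (7.69%, against 8.62%) lower, near the shares of all genes. ACS2, an ACC synthase gene of ethylene production, stood at 6.41 and 8.78, and the signalling factor gene EIL1B at 7.28 and 9.38. The gibberellin 20-oxidase genes went opposite ways, GA20OX2 from 8.28 to 6.86 and GA20OX3 from 8.09 to 9.90. Cytokinin genes had 7 of 26 members (26.9%) 2-fold higher, 2 lower, 21 above 0 and a median of 0.48. LOGL5 and LOGL3, of the family that activates cytokinins, were at 6.51 and 8.36, and at 9.88 and 11.45, whereas the cytokinin oxidase gene CKX5 was at 7.51 and 6.08. Of 20 auxin transport and conjugation genes 5 (25%) were 2-fold higher and 1 lower, with a median of 0.01. Among the higher ones, DAO, a dioxygenase gene that inactivates auxin, was at 8.53 and 11.10. SAUR39 was at 8.92 and 10.57. The 40 Aux/IAA and ARF genes had a median of -0.15. Of these, 3 (7.5%, against 7.44% of all genes) were 2-fold higher and 2 (5%, against 8.62%) lower. No brassinosteroid or strigolactone gene was 2-fold apart, of 15 and 5 measured. The largest differences there were 0.53 for C6-oxidase and 0.77 for the strigolactone receptor gene D14.

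Abscisic acid genes were mixed, and the PP2C phosphatases, of which clade A dampens abscisic acid signalling, were 2-fold apart only upward. Of 55 PP2C genes 9 (16.4%, against 7.44% of genes in all) were at least 2-fold higher, and the median was 0.09. PP2C32 was at 8.61 and 11.02, and PP2C68 at 4.22, under the floor, and 7.03. In the core list 3 of 22 genes (13.6%, against 7.44%) were 2-fold higher and 2 (9.09%, against 8.62%) lower. The higher ones were BZIP52, given above, MODD, at 8.28 and 9.75, and the SnRK2 kinase gene SAPK1, at 10.18 and 11.48. The bZIP factor gene BZIP06 was lower, at 9.48 and 8.14. RAB21, a dehydrin gene that answers abscisic acid and drying, went from 7.07 to 8.68.

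Regulators linked to stress and ageing were higher in several families. Of 6 WRKY genes with a usable symbol 5 (83.3%, against 7.44% of all genes) were at least 2-fold higher, with a median of 1.87. WRKY62 stood at 5.46, just under the floor, and 8.27, and WRKY76 at 6.08 and 8.71. DREB factors, which respond to cold and drying, had 3 of 7 members (42.9%) 2-fold higher. Their median was 0.58, or 1.16 with both M202 arrays required to reach the floor. DREB1B was at 7.54 and 9.58 in M202 and at 6.35 and 11.27 in M202(Sub1). Among the MYB and bHLH genes, BHLH148 was at 6.60 and 8.98, JAMYB at 7.88 and 10.09 and BHLH172 at 9.87 and 7.93. Homeobox genes were split, with HOX24 at 3.90, under the floor, and 7.05, Hox22 at 7.23 and 9.57 and the KNOX gene OSH1 (LOC4333973), a marker of the shoot meristem, at 6.11 and, under the floor, 4.10. SAP17 and SAP5, of the stress-associated zinc finger family, differed by 2.41 and 2.49.

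Heat shock factor genes were 2-fold apart in both directions, and heat shock protein genes only upward. Of 18 factor genes 5 (27.8%, against 7.44% of all genes) were 2-fold higher and 3 (16.7%, against 8.62%) lower. HSFC2A was at 5.54 and 8.89, HSFB1 at 7.26 and 9.06 and HSFA3 at 7.90 and 6.57. The lower genes HSFA2C and HSFB4B, at -1.14 and -1.13, each had a second probe set above the floor. Those probe sets differed by 0.47 and -0.06. The 21 heat shock protein genes had a median of -0.04, with 3 (14.3%, against 7.44%) 2-fold higher and none lower. Of the higher ones HSP24.1 differed most, at 8.13 and 9.95. Chaperones of the endoplasmic reticulum had a median of -0.31, and the protein disulfide isomerase gene PDIL1-1 was at 12.95 and 11.70.

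Calcium sensor genes were higher where they were 2-fold apart. Of 24 calmodulin and calmodulin-like genes 7 (29.2%, beside 7.44% of genes in all) were at least 2-fold higher, none was 2-fold lower, and the median was 0.49. CML31 stood at 7.84 at 1 day and 12.13 at 6 days, or 19.6-fold higher, and CML15 at 8.55 and 12.12. In M202(Sub1) they were at 5.81 and 12.36, and at 6.82 and 12.75. CBL calcium sensors and the CIPK kinases that act with them share a list of 28 genes. Of these 5 (17.9%) were 2-fold higher, beside 7.44% of genes in all, and 2 (7.14%) lower, beside 8.62%. Among its 22 CIPK genes 4 were higher and 2 lower, and among its 6 CBL genes 1 was higher. This split was made after the values were seen. The CIPK genes included CIPK17 at 9.63 and 11.01 and CIPK12 at 7.07 and 4.84. The latter value lay under the floor, and set to the floor it left CIPK12 at least 2.93-fold lower, while a second probe set of the gene, under the floor at both times, differed by -0.43. None of 17 calcium-dependent kinase genes was 2-fold apart, the largest difference being -0.93 for CPK12. In the MAP kinase list the 2-fold higher genes included the WNK kinase genes WNK7, WNK8 and WNK5, with differences of 1.66, 1.52 and 1.44.

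Redox genes were found on both sides. Among the lower ones, the plastid peroxiredoxin gene PRXIIE-2 stood at 10.57 and 8.18, the plastid thioredoxin gene cdsp32 at 12.55 and 10.77 and the plastid superoxide dismutase gene sodCp at 12.89 and 11.70. CAT-A, a catalase gene, was at 13.48 and 11.95. On the other side, the mitochondrial alternative oxidase gene AOX1 was at 6.95 and 8.60, the nucleoredoxin gene Nrx1-1 at 8.75 and 11.78 and the glutaredoxin gene GRXS5 at 10.19 and 12.60. Over the lists, and beside 8.62% lower and 7.44% higher of all genes, 4 of 24 peroxide and superoxide genes were 2-fold lower and 1 higher, and of 43 thioredoxin and glutaredoxin genes 3 were lower and 4 higher. The glutathione transferase gene GSTU6 was at 8.57 and 10.32.

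Diterpenoid phytoalexin genes, which make the antimicrobial momilactones, phytocassanes and oryzalexins of rice, were higher at 6 days in M202. All 15 genes with a probe set lay above 0. Of these, 4 stayed under the floor on each array, with differences of 0.12 to 0.32. In 9 of the 15 the upward difference reached 2-fold. Those 9 make up 81.8% of the 11 past the floor, beside 7.44% of genes in all. CPS2, the copalyl diphosphate synthase gene at the entry to phytocassane and oryzalexin synthesis, stood at 3.48 at 1 day and 8.23 at 6 days in M202, so that it was at least 6.55-fold higher with the 1-day value set to the floor. CPS4, the synthase gene of the momilactone branch, was at 5.29 and 8.17, and the P450 gene CYP71Z7 at 5.85 and 8.72. The 1-day values of CPS2 and CPS4 lay under the floor, as did those of 7 of the 11 genes past the floor. Such genes could pass only through another array, so the list median depends on the floor. It was 1.499 over all 15 genes and 2.31 over the 11. Over those past a floor at the 75th percentile it was 3.81, and over those past the floor on both M202 arrays 0.92. Both of these last values rest on few genes, and the latter leaves out the 7 genes under the floor at 1 day. In M202(Sub1) CPS2 was at 5.48 and 6.11, CPS4 at 6.31 and 7.22 and CYP71Z7 at 7.22 and 6.51, and the median over the 11 genes was 0.01. Several of these P450 genes, such as CYP99A2 and CYP99A3, are close copies of each other, so a probe set may read more than 1 of them.

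Defence proteins had the same direction in part. Of 22 genes for pathogenesis-related proteins, chitinases and germin-like proteins 11 (50%, against 7.44% of all genes) were at least 2-fold higher, 1 was lower, and the median was 1.05, or 0.27 over all 25 genes with no floor. PBZ1, a probenazole-inducible PR10 gene, stood at 9.26 at 1 day and 12.31 at 6 days in M202, and at 11.51 and 10.37 in M202(Sub1). The chitinase genes chia4a and Cht4 were at 5.56 and 8.49, and at 4.30 and 6.99, with Cht4 under the floor at 1 day. The germin-like gene GER8 was the 2-fold lower member, at 12.003 and 10.37. Upstream of these, CEBIP, the receptor gene for chitin fragments, was at 11.18 and 12.75, and NH1, the rice gene related to the salicylic acid regulator NPR1 of Arabidopsis, at 8.36 and 9.92. In that list of immune receptors and signalling genes 3 of 31 (9.68%) were 2-fold higher and 2 (6.45%) lower, with a median of 0.15. These shares are near the 7.44% and 8.62% of all genes. Probe sets of the array for a fungal rice pathogen, 10 in all, differed by -0.27 to 0.46 between the times, with medians of 5.51 at 1 day and 5.36 at 6 days. Other microbes have no probe set that was used here.

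**Figure D5:**
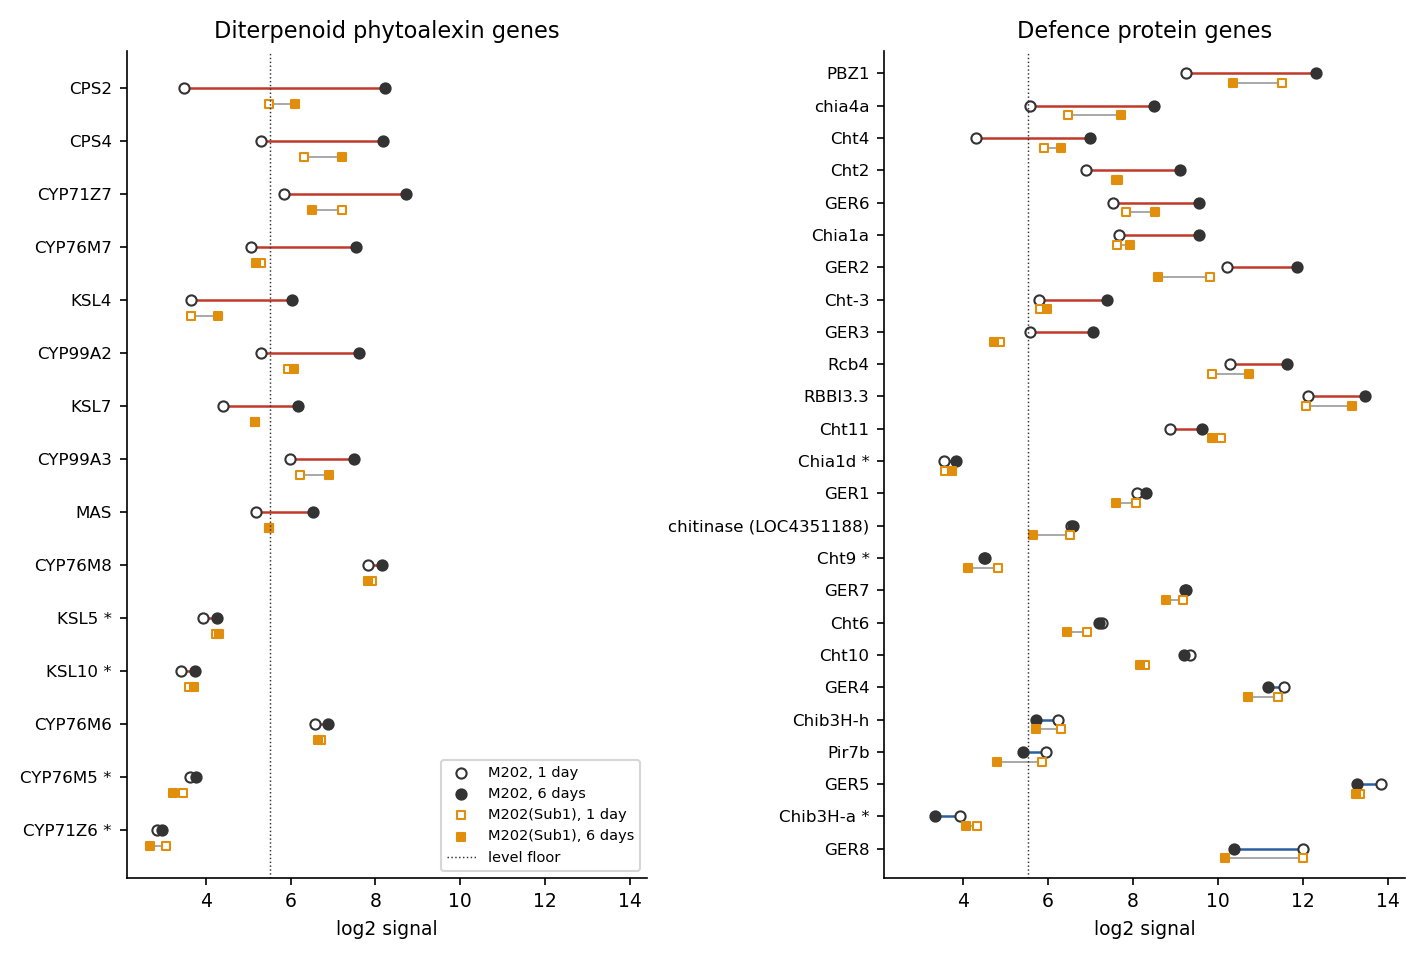
Log2 signal of all genes with a probe set in the phytoalexin list (left) and the defence protein list (right) at 1 day (open) and 6 days (filled), with M202 as black circles and M202(Sub1) as orange squares, 1 array per point. The dotted line is the level floor of 5.51, and an asterisk marks genes under it on each array. CPS2 lies at 3.48 and 8.23 in M202 and at 5.48 and 6.11 in M202(Sub1), and PBZ1 has opposite directions in the lines.

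Among clock and light genes, Hd1, a regulator of flowering by day length, stood at 5.61 and 8.38, and DTH8, a heading date gene, at 6.496 and 4.79, the latter under the floor, or 1.98-fold lower with it set to the floor. The morning clock gene LHY was at 12.03 and 13.19, and its second probe set was at the same level under the floor on both arrays. The list had 3 of 18 members (16.7%, against 7.44% of all genes) 2-fold higher, 1 (5.56%, against 8.62%) lower and a median of 0.10. The genes of proteasome and ubiquitin, potassium and cation transport, amino acid synthesis and vesicle traffic had medians between -0.19 and 0.14. In that order 2 of 40, 1 of 42, 0 of 26 and 0 of 17 were 2-fold lower, against 8.62% of all genes. The 2-fold higher genes were 0 of 40, 1 of 42, 2 of 26 and 0 of 17, against 7.44%. Among these the amino acid synthesis gene SAT1 was at 10.99 and 12.70.

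Beta-glucosidases were found far apart in both directions, with 6 of 24 genes (25%, against 7.44% of all) 2-fold higher, 3 (12.5%, against 8.62%) lower and a median of -0.04. BGLU26 was at 7.16 and 9.68, and BGLU30 at 7.46 and, under the floor, 5.05. The lists that remain held few genes that were 2-fold apart. In phosphate transport, PHR3, of the family of phosphate starvation regulators, was at 6.56 and 8.48, and the exporter family gene PHO1;3 at 6.70 and, under the floor, 5.39. Among mitochondrial carriers and import genes MIA40, for a protein that folds imported proteins, was at 7.97 and 9.59. None of 11 starvation kinase and RSH genes or of 10 protease and inhibitor genes was 2-fold apart, and the largest differences there were -0.72 for CRSH2, which was under the floor at 6 days, and 0.88 for the cystatin family gene OC-X. In gene silencing, AGO18, an argonaute gene, was at 6.55 and 7.85 in M202 and at 7.12 and 7.03 in M202(Sub1). The meiosis list held SPO11-4, of the family that cuts DNA in meiosis, at 9.55 and 8.36, and MSH5 at 7.11 and 5.902. The seed storage glutelin gene GLUA-2, for a protein of the grain, read 9.48 and 10.22.

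Most genes that were 2-fold apart in M202 lay on the same side in M202(Sub1), which shares no array with it. Of the 1147 genes higher in M202, 1120 were above 0 and 745 (65.0%) at least 2-fold higher in M202(Sub1), and their median difference was 1.52 in M202 and 1.30 in M202(Sub1). Of the 1330 lower genes, 1220 were below 0 and 478 (35.9%) at least 2-fold lower, with medians of -1.33 and -0.80. The genes were chosen on their M202 values, so these medians are no comparison of the lines. Of all 15426 genes, 7905 were above 0 and 7510 below 0 in M202(Sub1). Side by side, the fermentation list had a median of -1.93 in M202 and -1.84 in M202(Sub1), the salvage list 1.19 and 1.07, and the chlorophyll synthesis list -0.82 and -0.62. The wall hydrolase list had -0.88 and -0.07, the ribosomal protein list -0.65 and -0.33, and the defence protein list 1.05 and -0.18. None of these differences between the lines was tested. The background in M202(Sub1) was 6.25% of genes at least 2-fold higher and 4.61% lower, and 2.19% at least 4-fold higher and 0.551% lower.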

How the data were processed

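Shoot RNA of M202 and M202(Sub1) after 1 and 6 days of submergence was hybridised to 1-colour Affymetrix rice arrays, with 1 array per group. The deposited values are log2 signals that the authors normalised with RMA, per the submitters' processing notes, which give no version and do not say which arrays were processed together. The table holds no detection calls and no background estimate, so the level floor stands in for detection, and the number of arrays limits the precision. RMA equalises the arrays' distributions, so a shift of all transcripts would not be seen.

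Of 57381 probe sets 123 controls were left out. By the platform annotation 22436 of the rest pair with 1 gene, 95 with several and 34727 with none. They give 17905 genes, all of which matched the RefSeq annotation of assembly ASM3414082v1, used for names and gene order. Each gene is represented by its probe set of highest mean signal on the 4 arrays, and genes whose highest value reached the median of all values were kept. Differences were computed with Python 3.11.15, numpy 2.4.6 and pandas 2.3.3, drawn with matplotlib 3.10.9, and the counting was checked on simulated data. Fold bounds set values under the floor to the floor.

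The named genes are the 15 with the largest positive and the 15 with the largest negative difference among those with an informative name and the same sign in all their probe sets, and for each list up to 3 each way that were at least 2-fold apart, or else the 1 with the largest difference. All had to pass the floor, and some were left out of the text. The members and lists were chosen with earlier results of these data known, lists were rewritten as symbol patterns once the annotation was read, and the subsets by role were set after the values were seen. Alternatives were other floors, another threshold, the mean of probe sets, leaving out cross-hybridising probe sets, median centring and quantile normalisation. A motif search in promoters was planned and not run, as no sequences were used here. Certain genes are not reported here.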

Additional observations from a re-analysis of the deposited data

Results flagged for a closer look

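In 4 named genes the time difference was over 0.5 on the log2 scale in both lines and had opposite signs. The difference between the lines was not tested, since each value is a single pair of arrays. PBZ1, a PR10 gene, differed by 3.05 in M202 and by -1.14 in M202(Sub1). CYP71Z7, a phytoalexin P450 gene, differed by 2.86 and -0.71. OSH1 (LOC4333973), the KNOX meristem gene, differed by -2.01 and 2.22, and its values at 6 days in M202, 4.10, and at 1 day in M202(Sub1), 3.76, lay under the floor. With the former set to the floor its M202 difference was -0.59. PIN5, of the auxin carrier family, differed by -1.13 and 0.68, its 6-day value in M202, 4.60, lay under the floor, and set to the floor it gave a difference of -0.21.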

How the results depend on the processing

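No paired analysis was possible because each group is 1 array with no replicate number, and no array could be left out in turn. With a 4-fold threshold the counts were 333 higher and 184 lower genes, and with the floor at the 75th percentile of all values 878 genes were lower. Of 510 list medians under the alternatives 502 moved by less than 0.5 on the log2 scale and none that lay over 0.25 from 0 turned its sign. The other 8 belong to 5 lists. The phytoalexin median was 1.499 with no floor, 3.81 with the floor at the 75th percentile and 0.92 with both M202 arrays at the floor. The defence protein median was 0.27 with no floor. The DREB median was 1.16 both with the 75th percentile floor and with both arrays at the floor, against 0.58. With the 75th percentile floor the glutathione transferase median was 0.49, in place of -0.21, and the trehalose median 0.94, in place of -0.02. These alternatives change which genes are kept. The phytoalexin medians with the 75th percentile floor and with both arrays at the floor rest on few genes. Of 1441 named gene values 1423 moved by less than 0.5, the other 18 belong to 17 genes, and no gene that was 2-fold apart turned its sign. The higher genes made up 46.3% of those 2-fold apart, 50.9% after median centring, 51.2% with the 75th percentile floor and 45.2% to 47.3% otherwise. Signals near background limit what the lowest values show.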

Other observations

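The genes with the largest differences mostly carry no informative name. Of the 100 with the largest positive difference 19 have one, and of the 100 with the largest negative difference 16. LOC4345988 stood at 4.77, under the floor, and 11.27 in M202, a difference of 6.503, and at 3.82 and 10.55 in M202(Sub1). LOC4345985 was at 6.02 and 11.55. Both lie on chromosome 8 with 3 genes between them in the RefSeq order. LOC4351191 was at 5.899 and 12.06. At the other end LOC4347708 was at 8.496 and 3.35, the latter under the floor, and LOC4339516 at 11.29 and 6.81. These genes were chosen after their values were seen.

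Low-level genes held more of the lower calls. With the genes split into 4 equal classes by mean signal, in the lowest class 8.32% were 2-fold higher and 14.1% 2-fold lower, and in the highest class 7.26% and 5.65%. By chromosome the higher share ran from 6.49% to 9.03% and the lower share from 7.93% to 10.5%. Of 12164 probe sets above the floor with no gene in the platform annotation 486 (4.00%) were 2-fold higher and 490 (4.03%) 2-fold lower.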
